A study of Drosophila melanogaster with 2 samples.

Results

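Of the 5701 peaks that the submitters' irreproducible discovery rate (IDR) procedure retained for E(spl)m3-GFP in fly embryos, 843 (14.8%, 95% Wilson interval 13.9 to 15.7) lay between genes and away from promoters. A peak was taken as intergenic when its summit was in no annotated gene of any kind other than a transposable element and was more than 500 bp from every annotated transcription start site (TSS). The remaining 2707 promoter peaks, with a summit within 500 bp of a TSS, and 2151 intragenic peaks, inside a gene and farther than that from a TSS, serve for comparison. Chromatin immunoprecipitation sequencing (ChIP-seq) had been carried out on whole Drosophila melanogaster embryos, 0 to 24 h old and of both sexes, from a transgenic strain named E(spl)m3-HLH-GFP that stably makes E(spl)m3 fused to GFP at its C terminus. The precipitation is described as made with an anti-GFP antibody, but the field for the antibody gives E(spl)m3-HLH, and sonicated fragments were 200 to 800 bp long. All data came from 1 group with 2 biological replicates, numbered 2 and 3, and the control library was not analysed here. Embryos of all ages were pooled in whole animals, so signal from different tissues and stages cannot be told apart. No read counts were given, and sequencing depth is unknown.

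E(spl)m3-HLH belongs to the bHLH (basic helix-loop-helix) repressors of the Hairy and Enhancer of split family. Its gene is switched on by Notch signalling, and proteins of this family bind DNA at E boxes and related sites and recruit the corepressor Groucho. In flies much of the sequence between genes that are used in patterning holds enhancers, which act on promoters at a distance, and insulator and Polycomb response elements also lie there.

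The sequences under 7 summits are shown first, because they include 3 of the strongest intergenic peaks and holders of the letters described later. Each is 101 bases of the plus strand of the RefSeq release 6 genome (dm6), reaching 50 bases to each side of the summit. The first 3 are from among the 25 strongest, the fourth is the strongest intergenic peak that holds CACGTG, and the last 3 hold GATGGCGC. Here and below a peak or gap is named by the nearest protein-coding gene on each side of the gap; for 432 of the 843 peaks the gap itself ends at a noncoding gene or pseudogene on at least 1 side. Capitals mark CACGTG and CACGCG, which are sites of E(spl) family proteins, GATGGCGC, and GGTCACACT, the core promoter element called Motif 1, on either strand.
tara upstream (chr3R:16222444-16222544): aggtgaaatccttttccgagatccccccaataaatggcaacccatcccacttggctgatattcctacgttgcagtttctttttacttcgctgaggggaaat
slp1 to slp2 (chr2L:3832473-3832573): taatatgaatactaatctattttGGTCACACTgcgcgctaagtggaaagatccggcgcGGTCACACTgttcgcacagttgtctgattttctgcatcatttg
E(spl)malpha-BFM upstream (chr3R:26009027-26009127): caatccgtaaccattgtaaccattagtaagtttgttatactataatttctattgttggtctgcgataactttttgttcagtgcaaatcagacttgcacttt
tsh to CG11629 (chr2L:21846534-21846634): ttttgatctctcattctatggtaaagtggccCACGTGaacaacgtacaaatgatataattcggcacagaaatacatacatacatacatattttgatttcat
soti to cv-c (chr3R:14391371-14391471): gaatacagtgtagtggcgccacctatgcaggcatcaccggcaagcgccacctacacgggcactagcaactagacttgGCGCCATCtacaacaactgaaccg
Sox21a to Sox21b (chr3L:14111580-14111680): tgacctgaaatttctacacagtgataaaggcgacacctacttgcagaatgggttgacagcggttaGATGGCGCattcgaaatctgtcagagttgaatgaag
Sid to snu (chr3R:28672339-28672439): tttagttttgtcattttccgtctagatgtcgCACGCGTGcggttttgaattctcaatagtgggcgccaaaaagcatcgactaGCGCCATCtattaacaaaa
The sequence upstream of tara and the one upstream of E(spl)malpha-BFM hold none of these letters. The sequence between slp1 and slp2 holds Motif 1 at 2 places. A match is a description of the letters and not evidence of binding.

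Intergenic peaks had signals close to those of intragenic peaks and lower, at the median, than those of promoter peaks. Signal is the authors' own enrichment value, on a scale set within each list. In the pooled list its median was 175 for intergenic peaks, 182 for intragenic peaks and 211 for promoter peaks. In the list of replicate 2 the medians were 107, 113 and 136 for intergenic, intragenic and promoter peaks. In replicate 3 they were 68.9, 71.5 and 78.4 in the same order. The intergenic median was therefore 0.826 times the promoter median in the pooled list, 0.787 times in replicate 2 and 0.880 times in replicate 3. Against intragenic peaks the ratio was 0.961, 0.948 and 0.964 in the pooled list and the lists of replicates 2 and 3. The distributions overlapped widely, with quartiles of 131 and 262 for intergenic and 144 and 352 for promoter peaks in the pooled list. Peaks of 1 list are not replicates, so no test was made.

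**Figure D1:**
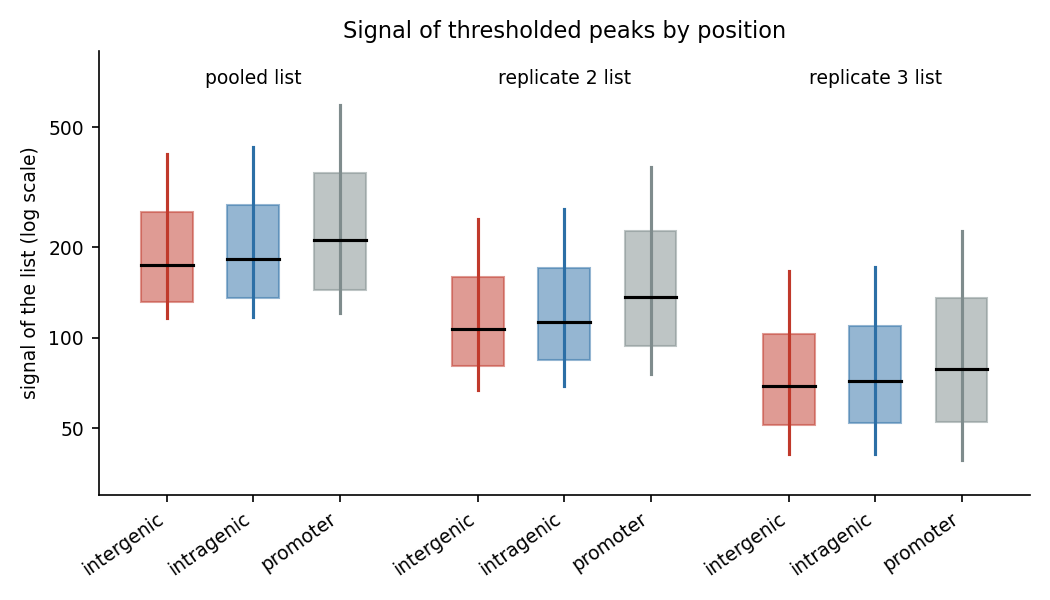
Signal of thresholded peaks (log scale) by position, in the pooled list and the lists of replicates 2 and 3; boxes span the quartiles, black lines are medians and thin lines run from the 10th to the 90th percentile. In each list intergenic peaks lie slightly under intragenic peaks and under promoter peaks, with wide overlap.

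The shares of intergenic and of intragenic peaks were larger at the weak end of the list than at the strong end. When all 5701 peaks were ranked by pooled signal and divided into 10 parts, intergenic peaks made up 50 of the first 570 (8.77%, interval 6.72 to 11.4) and 104 of the last 571 (18.2%, 15.3 to 21.6). Intragenic peaks made up 27.9% of the first part and 42.9% of the last, and promoter peaks 63.3% and 38.9%. Among the 100 strongest peaks, 7 were intergenic, 72 were at promoters and 21 were intragenic. Below the threshold, 4672 of the 20090 other entries of the pooled list (23.3%) met the same rule. That list is labelled as peaks and background, so these entries may be background.

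The strongest intergenic peak lay 3157 bp upstream of tara, which encodes a transcriptional coregulator of the trithorax group, between 16222287 and 16222698 on 3R. It ranked 17 of 5701 with a pooled signal of 1942, and had 1076 in replicate 2 and 854 in replicate 3. The TSS of the noncoding RNA gene lncRNA:CR45643 was nearer, at 901 bp, and the gap held 3 intergenic peaks. A further peak, in another gap 1147 bp upstream of tara and 904 bp from the TSS of lncRNA:CR45643, had a pooled signal of 891. It had 592 in replicate 2 and 306 in replicate 3. Other strong peaks lay beside genes of varied function. The second, between Su(z)2 and CG13323 on 2R, had a pooled signal of 1714, with 1009 and 705 in replicates 2 and 3. The third, between blw, which encodes a subunit of the mitochondrial ATP synthase, and CycB, which encodes cyclin B, had 1657, with 949 and 713.

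The next 4 peaks were picked from the 25 strongest after their values and neighbours were seen, and no gene group among the 25 was counted. In the gap between Glut3 and abd-A, a Hox gene of the bithorax complex, the summit at 3R 16798876 had a pooled signal of 1037, with 578 in replicate 2 and 460 in replicate 3. Between the neighbouring pair-rule genes slp1 and slp2, 4317 bp upstream of slp2, the signal was 1018 pooled, 585 in replicate 2 and 433 in replicate 3. Upstream of chinmo, which encodes a zinc finger protein of neuronal temporal identity, the strongest peak was 12407 bp from its TSS and had 1026, 624 and 398 in those lists. A peak 3332 bp upstream of foxo, the forkhead factor of insulin signalling, had 776, 478 and 295. Other strong peaks had neighbours such as COX7AL2 and CG31668 (1295 pooled) and Sol1 and Cyp9f2 (1200 pooled). The 3 weakest intergenic peaks, beside CG3842, CG13857 and Tmtc1, had pooled signals of 109, 108 and 108.

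Nearly every intergenic peak had a match in the list of each replicate, as had nearly every thresholded peak. A summit within 100 bp was present in replicate 2 for 834 of 843 (98.9%), beside 98.6% of all thresholded peaks, and in replicate 3 for 831 (98.6%), beside 97.2%. Both replicates had it for 824 (97.7%), beside 96.0%. The threshold was set on these same replicates, and their lists are far longer, with 30000 and 24781 entries. High shares were thus largely fixed in advance. Across the 824 peaks, which share their 2 libraries, signal in the replicates had a Spearman's rho of 0.750 and a Pearson's r of 0.825 on the log2 scale. Over all 5473 thresholded peaks matched in both replicates these were higher, 0.813 and 0.865. The median ratio of replicate 2 to replicate 3 signal was 1.53 for intergenic peaks, beside 1.63 for all. This ratio crosses 2 lists with scales of their own, so its size has no meaning by itself. A few intergenic peaks had a ratio far from the intergenic median. In the gap between NijA and CG43245 the summit at 3L 10739989 had a pooled signal of 641, with 400 in replicate 2 and 77.0 in replicate 3. Peaks without a summit within 100 bp in either replicate numbered 2, at 3R 13800509 (375 pooled), 12600 bp from the TSS of tal-1A, and at 3L 11296543 (172 pooled), 624 bp upstream of Dyro. All 9 intergenic peaks without a summit match in replicate 2, and 11 of 12 in replicate 3, still overlapped a peak there.

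**Figure D2:**
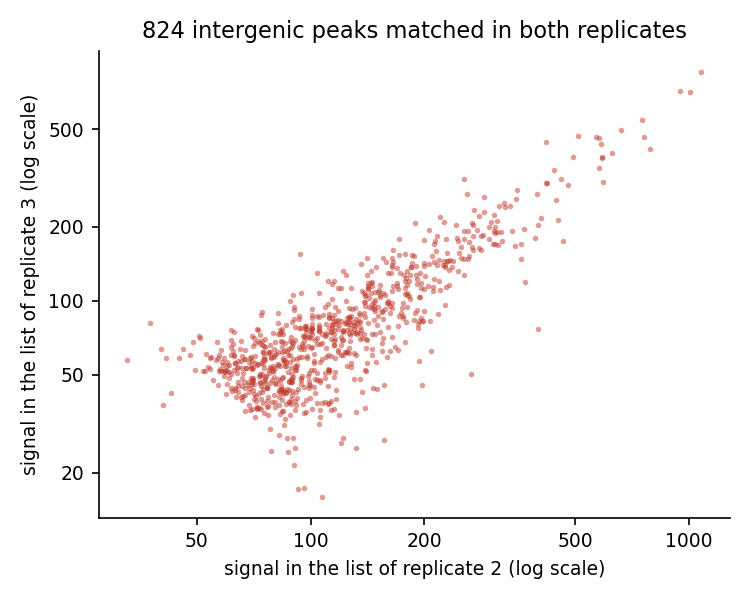
Signal of 824 intergenic peaks in the list of replicate 2 (x axis) and of replicate 3 (y axis), both on log scales. Each point is 1 peak, and the scatter widens towards weak signals.

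Intergenic peaks were sparser far from promoters, and most of the sequence farthest from them lay where thresholded peaks of any kind were almost absent. Sequence that meets the rule covers 36.5 Mb, or 27.2% of the 6 arms, and held 23.1 peaks per Mb (exact Poisson interval 21.6 to 24.7, for counting of peaks only). Intragenic sequence held 27.1 per Mb (26.0 to 28.3) and promoter sequence 149. Between 0.5 and 1 kb from the nearest TSS there were 54.9 intergenic peaks per Mb (46.6 to 64.2), between 2 and 5 kb 29.8 (26.3 to 33.5), between 10 and 20 kb 18.0 (14.5 to 22.1) and beyond 20 kb 2.65 (1.64 to 4.04). Median pooled signal changed less, with 187, 175, 168 and 142 in those bins. Only 21 peaks lay beyond 20 kb. Of the sequence beyond 20 kb, 75.9% lay in 39 windows of 500 kb that held at most 1 thresholded peak of any kind, promoter and intragenic peaks included. Such windows made up 30.5% of the sequence between 10 and 20 kb, 4.13% of that between 0.5 and 1 kb and 26.2% of all sequence that meets the rule. With these windows left out, a choice made after seeing the data, the densities were 57.2 per Mb between 0.5 and 1 kb, 32.2 between 2 and 5 kb, 25.9 between 10 and 20 kb and 11.0 (6.79 to 16.8) beyond 20 kb, and 31.3 over all distances. Windows chosen for having few peaks raise what is left by construction. Why they held so few was not tested.

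**Figure D3:**
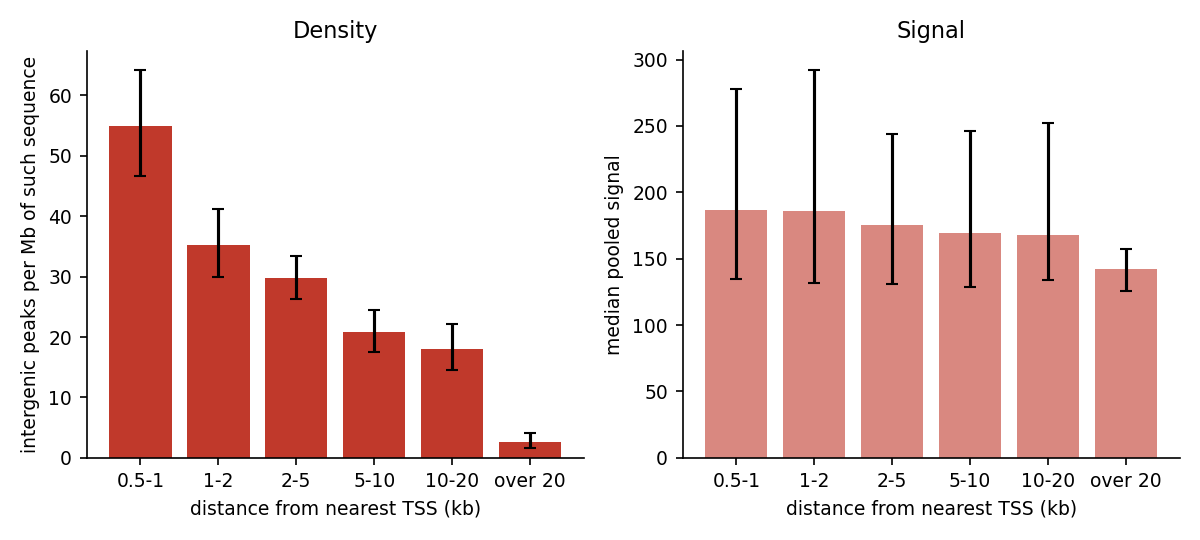
Density of intergenic peaks (left, with exact Poisson 95% intervals) and their median pooled signal (right, with quartiles) by distance from the nearest TSS. Density is 54.9 per Mb in the nearest bin and 2.65 in the farthest, where 75.9% of the sequence lies in windows with almost no peaks of any kind, and median signal is 187 and 142 in these bins.

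The median distance to the nearest TSS of any gene was 2949 bp, and that to the nearest protein-coding TSS was 4344 bp, with quartiles of 1668 and 10245 bp. The summit was upstream of the nearest protein-coding TSS for 559 peaks (66.3%). The nearest TSS belonged to a protein-coding gene for 578 and to another gene for 265, of which 238 were noncoding RNA genes. The peak farthest from any protein-coding TSS, 63972 bp from that of Cyp12e1 in the region of hth, a homeobox gene, had a signal of 131 in the pooled list. A neighbour 59534 bp from the same TSS had 208. In a gap of 73.5 kb between lncRNA:CR46353 and rpr, a cell death gene, with grim, another, as the nearest protein-coding gene on the other side, 3 summits were more than 40 kb from a protein-coding TSS, with pooled signals of 285, 142 and 135. At the limit of the rule, the peaks just inside it lay 501 bp from the TSS of CG6225, 502 bp from that of nw and 503 bp from the noncoding RNA gene lncRNA:CR45277, with pooled signals of 321, 231 and 417. Just outside it, at 500, 497 and 492 bp, peaks near lncRNA:CR43334, Fatp3 and l(3)neo38 had 138, 123 and 175.

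Where the nearest protein-coding genes on both sides point away from the gap there were 30.7 intergenic peaks per Mb (27.1 to 34.7, 261 peaks), against 23.8 (21.6 to 26.1, 431 peaks) where they point the same way and 18.9 (16 to 22.2, 151 peaks) where they point towards each other. Orientation and distance to a TSS are linked, since genes that point away have their starts towards the gap, and their parts in the difference were not tested. Of 6528 gaps that hold sequence meeting the rule, 577 (8.84%) held an intergenic peak. These gaps had a median length of 7.96 kb, against 1.44 kb for gaps without one. Per Mb, short gaps were richer: gaps up to 2 kb held 57.3 peaks per Mb (45.7 to 70.9) and gaps over 50 kb held 2.95 (1.96 to 4.27). Gap length and distance to a TSS are linked too, and their parts in this difference were not tested. Of the sequence in gaps over 50 kb, 77.2% lay in the windows with at most 1 thresholded peak, and without those windows the density there was 13.0 (8.62 to 18.8).

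Some gaps held several intergenic peaks. Of 843 peaks, 422 (50.1%, interval 46.7 to 53.4) lay in a gap with another intergenic peak. Another intergenic summit was within 5 kb for 319 (37.8%). No background was computed for these shares. With any thresholded peak as the neighbour, 450 (53.4%) had one within 5 kb, beside 58.6% of all thresholded peaks. Gaps with 5 or more peaks numbered 12 and held 68 peaks. The gap of 75.0 kb between NijA and CG43245 held 8 with pooled signals of 134 to 641. A gap of 33.0 kb between the transfer RNA gene tRNA:Ile-TAT-1-2 and CG13898 also held 8, with 132 to 443. Entries of the pooled list below the threshold, which may be background, were also found in gaps of this kind. Of 4672 intergenic ones, 1713 (36.7%) lay in gaps with a thresholded intergenic peak. Those gaps hold 18.4% of the sequence that meets the rule. They were chosen by peaks of the same pooled data, so these shares are a description only. Of all sequence that meets the rule, 26.2% lay in windows with at most 1 thresholded peak, which lowers what is expected outside those gaps.

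A gap of 20.9 kb upstream of chinmo, between lncRNA:CR44603 and lncRNA:CR45695, held 5 peaks. From the RFeSP side to the chinmo side their pooled signals were 122, 529, 246, 1026 and 704. In replicate 2 they had 83.2, 359, 178, 624 and 444, and in replicate 3 43.0, 170, 68.0, 398 and 258. The 5 peaks kept 1 order of strength in the 3 lists. A gap of 19.1 kb between lncRNA:CR44363 and CG7560 held 7 peaks with pooled signals of 155 to 719. A gap of 28.7 kb between lncRNA:CR44730 and lncRNA:CR44731, with CG15283 and noc, a zinc finger gene of eye and trachea development, as the nearest protein-coding genes, held 5 with 137 to 396.

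On a larger scale, 2 windows of 500 kb on 3L stood above the others. Over 272 such windows the median was 2 intergenic peaks, and 68 windows held none, of which 33 held no thresholded peak of any kind. The window from 11.0 to 11.5 Mb held 40, in 13 gaps, and that from 0.5 to 1.0 Mb held 33, in 14 gaps, while the next 3 held 17 each. The strongest 5701 peaks of replicate 2 alone gave 37 and 32 in these windows, and those of replicate 3 alone gave 42 and 35. Median pooled signals there were 171 and 179, close to the 175 of all intergenic peaks. The windows held 8.66% of intergenic peaks on 1.03% of the sequence that meets the rule. Arm 3L as a whole had 28.5 peaks per Mb, and 21.4 (18.4 to 24.7) without them, a choice made after seeing the data. The highest arm densities besides were 28.3 on 2L and 28.5 on 4, where only 7 peaks lay, and the lowest was 15.6 on 2R. On 2R 46.8% and on 3L 35.6% of the sequence that meets the rule lay in the windows with at most 1 thresholded peak. Without those windows 2R had 29.3 per Mb (24.2 to 35.1), 3L 44.3 (39.1 to 50) and X the lowest, 20 (16.2 to 24.5). With gaps over 50 kb left out, also chosen after seeing the data, X again had the lowest, 22.2.

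**Figure D4:**
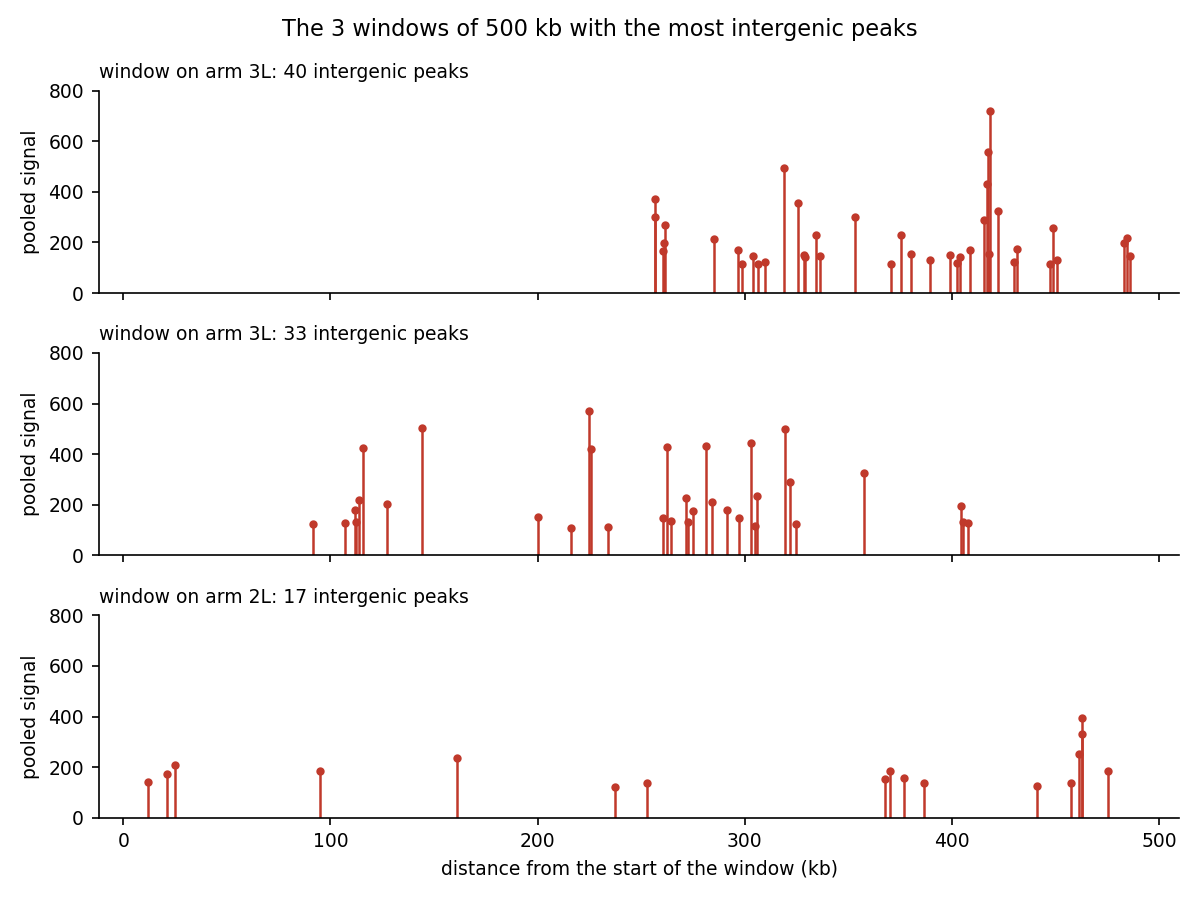
Intergenic peaks in the 3 windows of 500 kb that held the most, with distance from the start of the window on the x axis and pooled signal on the y axis; each stem is 1 peak. The windows on arm 3L hold 40 and 33 peaks and the window on 2L, 1 of 3 with that number, holds 17.

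Several lists of patterning genes stood beside intergenic peaks in larger shares than protein-coding genes in general. A gene counts here when it is the nearest protein-coding gene on either side of a gap with an intergenic peak, even where noncoding genes lie between it and the gap, as was so for 6.80% of all 13945 protein-coding genes. Among pair-rule and segment polarity genes, which divide the embryo into segments, 12 of 18 counted (66.7%, interval 43.7 to 83.7), among head and eye genes 9 of 14 (64.3%, 38.8 to 83.7) and among neural precursor and neuroblast genes 10 of 18 (55.6%, 33.7 to 75.4). T-box, GATA and Iroquois genes stood at 7 of 16, mesoderm and muscle genes at 8 of 19, signalling ligands at 9 of 22 and Hox and homeotic genes at 6 of 15. Gap and terminal genes stood at 2 of 8 and adhesion and axon guidance genes at 4 of 19, proneural and SoxB genes at 3 of 16, Notch pathway genes at 3 of 20 and ecdysone response genes at 1 of 12. The 3 counted in the proneural and SoxB list were Dr, SoxN and D. In that list ac, sc, l(1)sc, ase, ato, amos, cato, tap and da did not count. The Sox genes of the proneural and SoxB list were D, SoxN and Sox14, and the name of the list is approximate. Sox21a and Sox21b, which lie on either side of an intergenic peak shown above, were not in it and were not counted. Several genes are in more than 1 list, and neighbours share gaps.

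The lists also differed in the length of these gaps, summed per gene over the gaps beside it that hold sequence meeting the rule. The median was 25.5 kb for the pair-rule and segment polarity list, 21.2 kb for the head and eye list, 15.2 kb for the neural list and 0.0930 kb for all protein-coding genes. Gap and terminal genes had 19.1 kb, with 2 of 8 counted, and adhesion and axon guidance genes 14.5 kb, with 4 of 19. The E(spl) complex had 4.18 kb, with 5 of 12. Among all protein-coding genes the share counted was 2.00% with under 5 kb of such gaps and 19.1% with 5 to 10 kb. It was 23.9% with 10 to 20 kb, 36.4% with 20 to 40 kb, 39.5% with 40 to 80 kb and 29.6% with more. Gap length was not removed from the counts of the lists, and its part in them was not tested.

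Among the pair-rule and segment polarity genes, slp1 and slp2 had the strongest peak beside them, at 1018 pooled, followed by ptc, the Hedgehog receptor (361), wg, a Wnt ligand (334), drm (318) and hry (286). Around wg, 4 peaks lay in such gaps, with pooled signals of 334, 312, 155 and 112. No intergenic peak was counted for eve, gsb, gsb-n, inv, prd or run. In the head and eye list the strongest were beside Optix (441), eyg and toe (336 each), ems (335) and oc (303). In the neural list they were beside phyl, an adaptor of sense organ fate (417), pros, a homeodomain factor of neural differentiation (380), hry (286), nerfin-1 (195) and sca (160). In the mesoderm list bin (631), mid (387), Doc1 and Doc2 (381 each) and zfh1 (218) led, and among ligands vn, an EGF receptor ligand (640), Wnt4 and wg (334 each), and the fibroblast growth factors pyr and ths (278 each).

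Of the 20 Notch pathway genes 3 counted (15%, interval 5.24 to 36.0), beside 6.80% of all protein-coding genes, and the median gap length of the list was 0.726 kb. The 3 were fng, a glycosyltransferase that modifies Notch (186), nej, a histone acetyltransferase (154), and numb, an inhibitor of Notch (127). No intergenic peak was counted for Delta, Ser, N, Su(H), H or gro. Within the E(spl) complex 5 of 12 genes counted. The strongest peak there, 1816 bp upstream of E(spl)malpha-BFM in the gap between that gene and lncRNA:CR45039, had a pooled signal of 929, with 580 in replicate 2 and 348 in replicate 3. A gap between E(spl)m2-BFM and lncRNA:CR43643 held a peak with 495, 312 and 169 in those lists; it lay 556 bp from E(spl)m2-BFM and 3797 bp from E(spl)m3-HLH, the gene of the tagged protein. The gap between E(spl)malpha-BFM and Kaz-m1 held a peak with 120 in the pooled list and 69.5 in replicate 2, and no summit within 100 bp in replicate 3.

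Neighbouring genes were also examined for peaks at their own promoters. Of the 577 genes with the protein-coding TSS nearest to an intergenic peak, 108 (18.7%, interval 15.7 to 22.1) had a thresholded summit within 500 bp of a TSS, beside 23.2% of all protein-coding genes. Of the 948 genes that were the nearest protein-coding gene beside a gap with an intergenic peak, 166 (17.5%, 15.2 to 20.1) did.

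Of the known sites of this family, CACGTG and CACGCG were rare under summits of every class. They were at 0.511% and 1.02% of intragenic peaks and at 0.887% and 1.33% of promoter peaks. The E box CACGTG, bound by Hairy and E(spl) proteins, was within 50 bp of the summit, on either strand, at 4 of 843 peaks (0.474%, interval 0.185 to 1.21), beside 0.684% of all thresholded peaks. It was present in 23 of 1686 windows (1.36%) of the same width centred 300 bp to either side and in 1.09% of 355858 windows tiled over the sequence that meets the rule. The strongest of the 4 lay 17991 bp from the TSS of tsh, a homeotic zinc finger gene, with a pooled signal of 248, then 143 in replicate 2 and 103 in replicate 3. The C site CACGCG was present at 9 (1.07%), against 1.54% in tiled windows, and the N box CACNAG at 67 (7.95%), against 10.9%. Overlaps between matches of different motifs were not removed.

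Summits lay on sequence rich in A and T. The windows of 101 bases had a median G and C content of 32.7% at intergenic peaks, 31.7% at intragenic peaks and 33.7% at promoter peaks, against 45.5% in the windows 300 bp aside and 41.6% in tiled windows. Among tiled windows with a G and C content of 27.7% to 37.6%, the quartiles of intergenic peaks, a choice made after seeing the data, CACGTG was in 0.561%, CACGCG in 0.660% and CACNAG in 8.24%. The intergenic share of CACGCG, 1.07% (0.563 to 2.02), lay below that of all tiled windows, 1.54%, and above that of these windows. They are called composition-matched windows below, but the match is partial. Shares at intergenic peaks are over all 843, including those with G and C content outside that range. The part of this in the differences was not tested.

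**Figure D5:**
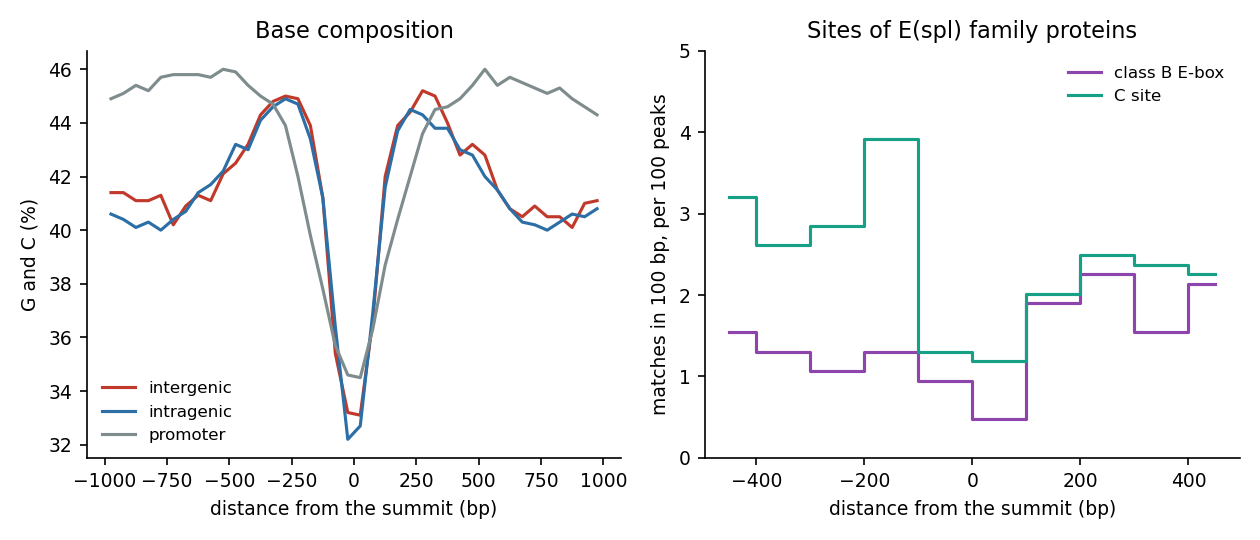
Left, G and C content in steps of 50 bp around summits of intergenic, intragenic and promoter peaks; right, matches of CACGTG (class B E-box) and CACGCG (C site) in steps of 100 bp around intergenic summits. G and C content at intergenic summits falls to 33.1% at the centre, against 45.2% about 275 bp away.

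Sites of core promoters and of the insulator protein BEAF-32 were less frequent at intergenic, and also at intragenic, than at promoter peaks. The DNA replication-related element TATCGATA was at 1 intergenic peak (0.119%), against 3.32% of promoter peaks, and CGATA, the core of the BEAF-32 site and contained in that element, was at 10.2%, against 21.7% of promoter peaks. Motif 1, GGTCACACT, was at 2 intergenic peaks, of which 1 is the peak between slp1 and slp2, and at 0.960% of promoter peaks. At intragenic peaks TATCGATA was at 0.186%, CGATA at 10.5% and GGTCACACT at 0.139%. In tiled windows TATCGATA was at 0.216%, CGATA at 10.5% and GGTCACACT at 0.0452%, and in composition-matched windows they were at 0.362%, 11.7% and 0.0529%. GAGAG was at 8.19% (interval 6.52 to 10.2), against 11.0% of tiled but 7.86% of composition-matched windows. GCCAT, the core of the Pleiohomeotic site, was at 16.3% (13.9 to 18.9), against 19.8% and 14.8%. For both the direction turned with the comparison windows. The 4 forms of the Suppressor of Hairless site, TGTGGGAA, CGTGGGAA, TGTGAGAA and CGTGAGAA, were at 3, 1, 1 and 0 intergenic peaks (upper Wilson limit for the last, 0.454%), and at 0.385%, 0.221%, 0.285% and 0.131% of tiled and 0.326%, 0.119%, 0.313% and 0.111% of composition-matched windows. Among sites of other factors of the embryo, CAGCTG, an E box of bHLH activators, was at 2.37% (1.54 to 3.64), against 3.47% of tiled but 1.70% of composition-matched windows. CAGGTG, an E box of Snail family repressors, was at 2.73% (1.82 to 4.06), against 3.06% and 1.67%, and CACATG, an E box of Twist, at 3.80% (2.70 to 5.31), against 4.40% and 3.40%. These 3 were thus lower than in tiled and higher than in composition-matched windows. CAGGTAG, the site of the early activator Zelda, was at 0.593% (0.254 to 1.38), against 0.434% and 0.303%.

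Of all 8-letter words present in at least 20 intergenic windows, 247 in number, GATGGCGC had the largest share at the summit relative to the windows 300 bp aside, with 1 added to each count there. It was in 22 intergenic windows (2.61%, interval 1.73 to 3.92), 2 flanking windows (0.119%) and 0.190% of tiled windows, against 1.02% of intragenic and 0.997% of promoter windows. Its letters resemble the site described for the fly insulator protein CTCF, and they contain GCCAT on the other strand. The 22 peaks had a median pooled signal of 241, with 146 in replicate 2 and 103 in replicate 3, against 174, 106 and 68.5 for the intergenic peaks without the word. They included the peak between soti and cv-c, with 973 pooled, 508 in replicate 2 and 467 in replicate 3, that between Sid and snu, with 773, 458 and 314, and that between Sox21a and Sox21b, a pair of Sox genes, with 501, 270 and 234. The word was picked as the most uneven of 247 in these same peaks, so its share is a description. CACTGAGA, in 25 intergenic windows (2.97%) and 0.297% of flanking windows, had a median pooled signal of 150. CACACACA showed the opposite pattern, with 0.474% of intergenic and 3.68% of flanking windows.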

How the data were processed

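E(spl)m3-GFP ChIP-seq peaks of 2 biological replicates of whole fly embryos were analysed from the deposited lists on build dm6. Per the labels and the deposited listings, the authors called peaks on each replicate and on the pooled alignments, and deposited an IDR-thresholded list. The sources used here give neither aligner nor peak caller. The signal of each peak is the authors' deposited value, on a scale set within each list. Ratios between classes of peaks were therefore formed within lists only. The ratio of replicate 2 to replicate 3 signal crosses lists and is given as a description. The −log10 q values deposited by the authors were not used. The lists held 25791 entries (pooled), 30000 (replicate 2) and 24781 (replicate 3), without read counts. The pooled list is labelled as peaks and background used as input for IDR.

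The computing used Python 3.11.15, pandas 2.3.3, NumPy 2.4.6 and SciPy 1.17.1. Genes and TSSs came from Ensembl release 115 on 6 arms, without transposable elements. A gap is the stretch between neighbouring genes of any other kind, coding or not, and is named in the text by the nearest protein-coding gene on each side. Summits within 100 bp were matched between lists. Of 17 motifs, exact matches within 50 bp of the summit were counted on both strands. Gene lists numbered 13. Named peaks were the 25 strongest, the 10 richest gaps, the 8 farthest from a protein-coding TSS, those of the E(spl) complex, those missing from both replicates, the nearest to the limit of the rule, the 3 weakest and the strongest holders of each motif; for each gene list up to 5 genes were named by the strongest peak in a gap beside them. Members and lists were chosen with earlier results of these data known. No test was made. Intervals at 95% (Wilson for shares, exact Poisson for densities) cover the counting of peaks or genes only. The rule, the matching and the motif search were tested on simulated data. Alternatives changed the distance, the genes counted, the part of the peak, the list, the replicate, the matching and the motif window.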

Additional observations from a re-analysis of the deposited data

How the results depend on the processing

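Over 71 alternatives, 47 values stayed within their interval (for counts, within 1.5 times; for the signal ratio, within the spread of the replicates) and 24 did not. The ratio of intergenic to promoter median signal was below 1 under all 8 of its alternatives, from 0.802 to 0.862. The number of intergenic peaks fell to 527 beyond 2000 bp of a TSS and to 355 among the stronger 2850 of the 5701 peaks. Density was 20.5 and 18.1 per Mb beyond 1000 and 2000 bp, 25.4 with protein-coding genes only, 26.2 with transposable elements counted as genes and 9.74 in that stronger list; among alternatives chosen after seeing the data, it was 21.3 without the 2 densest windows of 500 kb and 31.3 without windows with at most 1 thresholded peak. Median distance to a protein-coding TSS was 5465 and 6867 bp beyond 1000 and 2000 bp. The share in a gap with another was 54.8% beyond 2000 bp, 62.0% with protein-coding genes only and 34.6% in that stronger list. The share matched in replicate 2 was 99.7% in that stronger list, 91.1% within 50 bp and 100% within 200 bp or by overlap, and in replicate 3 99.4%, 89.3% and 99.9% by both. CACGTG was within 100 bp of the summit at 1.42%. These settings change the members or the window by construction. With the strongest peaks of 1 replicate alone, the number was 791 to 919, density 21.7 to 25.2 per Mb, the ratio 0.810 to 0.848, distance 4317 to 4617 bp, the shared-gap share 48.4% to 51.7% and the CACGTG share 0.253% to 0.653%. No paired analysis was possible because there is only 1 group. Depth is unknown, and weak peaks cannot be weighed against it.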

Other observations

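Some strong intergenic peaks lay in gaps next to genes of the Polycomb group, which keep patterning genes silent. They were picked after their values and neighbours were seen, no list of Polycomb genes was counted, and another gene was nearer to some. On 2R the peak at 13035343, 27432 bp from Su(z)2 and 9352 bp from CG13323, had a pooled signal of 1714, with 1009 in replicate 2 and 705 in replicate 3. A peak 7782 bp from Psc and 2503 bp from CG13321 had 1154, 660 and 495 in those lists, and a further one in that gap had 515, 360 and 148. The peak at X 2124060, between ph-d and ph-p and 774 bp from ph-d, had 635, 464 and 175.

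Intergenic summits inside annotated transposable elements, which the rule allows, numbered 3. That in an INE-1 element upstream of ed, a cell adhesion gene, had a pooled signal of 449, with 255 in replicate 2 and 193 in replicate 3. That in an HB element upstream of del had 221, 130 and 82.3, and that in an INE-1 element upstream of fuss had 114, 65.6 and 40.8.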
